A study of Mus musculus with 4 samples.

Results

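The tumour necrosis factor (TNF) ligands and their receptors were followed in mouse fibroblasts with and without the lysophosphatidic acid receptor gene Lpar1. The genes were chosen by name on the array: Tnf, Lta, Ltb, Ltbr, Fas, Fasl, Cd40, Cd40lg, Cd27, Cd70 and every symbol starting with Tnfsf or Tnfrsf and a digit, with the brightest probe standing for a gene that had several. That gave 41 of the 29636 genes on the array: 16 ligands, 5 receptors with a death domain, 15 receptors that signal through TNF receptor-associated factors (TRAFs), 4 decoy receptors or their genomic neighbours, and Tnfsf13os, a transcript from the strand opposite Tnfsf13.

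TNF ligands are mostly membrane proteins that act as trimers on neighbouring cells or after being shed by proteases. Their receptors either carry a death domain, which recruits adaptors such as TRADD and FADD, or a short tail that binds TRAF proteins and activates NF-kB, and decoy receptors bind ligand without passing a signal on. Fibroblasts are known to respond to TNF with chemokines, cytokines and matrix-degrading enzymes, whereas mast cells make several of the ligands themselves.

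The study used 4 single-colour arrays, 1 for each group, and each array carried total RNA pooled from 3 samples. The groups were Swiss 3T3 fibroblasts of the genotypes Lpar1-/- (KO) and Lpar1+/+ (WT) after 24 h of coculture, and KO and WT fibroblasts labelled as cocultured at 0 h. Swiss 3T3 is an established mouse embryonic fibroblast line. The KO cells came from a single-cell clone made with CRISPR/Cas9 and a guide next to exon 3 of Lpar1, so the genotype and the clone cannot be told apart. The partner cells were wild-type mast cells grown from bone marrow, and coculture took place with 100 ng/ml stem cell factor. The fibroblasts were separated by trypsin and reseeding or by depletion with CD117 beads, and the labels do not say which method was used for which array or what the 0 h samples contained. With 1 array a group there is no replicate check of any difference below. Each error given is the standard error (SE) from the scanner software's spot error model, which covers the measurement of the spot alone, and no p-value was computed.

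Values are normalized log2 signals, with 0 at the 75th percentile of the array's spots. A gene was measured in a comparison where its probe was well above background on both arrays, and a difference was called where it was at least 2-fold, that is 1 on the log2 scale. The marker genes of the cell types showed that the 4 arrays did not carry the same mixture. The median of 18 mast cell markers was -5.06 in KO and -4.95 in WT fibroblasts at 24 h, against 3.35 in KO and 2.29 in WT fibroblasts at 0 h. For 13 genes shared by all leukocytes the medians were -5.32, -5.14, 3.15 and 1.92 in the same order, and for 16 fibroblast markers they were 3.26, 3.20, 1.85 and 2.87. Of the mast cell markers 12, 12, 17 and 17 were well above background in that order, and they ranged from -8.96 to 3.86, -8.32 to -1.75, -6.48 to 6.76 and -7.57 to 6.41. The 0 h arrays thus held strong mast cell and leukocyte signal beside that of fibroblasts, and the 24 h arrays little. In such bulk RNA, fewer cells of a type and less RNA per cell cannot be told apart. Among the fibroblast markers, Thy1 read 4.12 in KO fibroblasts at 24 h, -7.41 in WT at 24 h, 3.73 in KO at 0 h and -7.02 in WT at 0 h, so the line and its clone differed in a surface marker at both times. Lpar1 itself read -3.61, -3.15, -3.43 and -3.20 in that order, a KO minus WT difference of -0.46 at 24 h and -0.22 at 0 h (SE 0.21 each). Where the edit lies relative to the Lpar1 probe was not analysed here, so this signal checks nothing about the knockout.

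The promoters of 6 genes are printed because the results turn on them: Fas, Tnfrsf11a, Tnfrsf13c and Tnfsf18 were called between KO and WT at both times, and Tnf and Ltb are neighbours that were higher on the 0 h than on the 24 h arrays. Each runs 5′ to 3′ along the gene's own strand, from 250 bases before to 50 bases after the RefSeq start, on GRCm38.p6, which is a later build than the mm9 build of the array's probe positions. Capitals mark a match to 1 of 3 motifs, searched on both strands: the kappaB consensus bound by NF-kB, the AP-1 site TGANTCA and the TATA box TATAAA.
Fas (chr19:34290409-34290708, plus strand): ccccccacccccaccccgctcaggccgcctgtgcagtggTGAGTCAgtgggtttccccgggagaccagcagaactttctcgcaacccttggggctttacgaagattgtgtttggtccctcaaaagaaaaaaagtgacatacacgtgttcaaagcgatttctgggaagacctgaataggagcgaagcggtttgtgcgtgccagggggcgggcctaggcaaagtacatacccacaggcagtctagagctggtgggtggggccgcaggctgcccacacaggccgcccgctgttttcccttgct
Tnfrsf11a (chr1:105780473-105780772, plus strand): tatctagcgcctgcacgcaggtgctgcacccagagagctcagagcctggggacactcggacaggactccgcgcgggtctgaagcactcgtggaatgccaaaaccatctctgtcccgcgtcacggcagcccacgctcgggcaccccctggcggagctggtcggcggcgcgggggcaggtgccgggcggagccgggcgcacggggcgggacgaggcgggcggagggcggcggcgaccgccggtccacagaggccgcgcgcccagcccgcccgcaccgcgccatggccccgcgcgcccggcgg
Tnfrsf13c (chr15:82224331-82224630, minus strand): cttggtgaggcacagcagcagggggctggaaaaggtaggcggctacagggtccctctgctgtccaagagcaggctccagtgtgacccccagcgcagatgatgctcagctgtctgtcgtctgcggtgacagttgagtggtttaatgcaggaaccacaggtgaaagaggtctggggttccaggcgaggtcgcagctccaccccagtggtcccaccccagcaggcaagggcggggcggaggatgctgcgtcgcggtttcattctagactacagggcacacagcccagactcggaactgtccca
Tnfsf18 (chr1:161494407-161494706, plus strand): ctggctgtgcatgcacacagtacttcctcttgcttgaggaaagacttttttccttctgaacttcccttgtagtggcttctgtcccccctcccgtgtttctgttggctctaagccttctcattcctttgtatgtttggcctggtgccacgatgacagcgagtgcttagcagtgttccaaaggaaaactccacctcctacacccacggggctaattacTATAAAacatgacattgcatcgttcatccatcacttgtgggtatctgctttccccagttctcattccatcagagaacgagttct
Tnf (chr17:35201958-35202257, minus strand): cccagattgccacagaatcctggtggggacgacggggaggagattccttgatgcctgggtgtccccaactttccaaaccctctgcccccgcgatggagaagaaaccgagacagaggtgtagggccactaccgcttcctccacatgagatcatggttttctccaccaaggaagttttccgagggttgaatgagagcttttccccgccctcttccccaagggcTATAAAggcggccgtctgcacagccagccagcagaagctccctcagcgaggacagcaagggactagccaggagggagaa
Ltb (chr17:35194257-35194556, plus strand): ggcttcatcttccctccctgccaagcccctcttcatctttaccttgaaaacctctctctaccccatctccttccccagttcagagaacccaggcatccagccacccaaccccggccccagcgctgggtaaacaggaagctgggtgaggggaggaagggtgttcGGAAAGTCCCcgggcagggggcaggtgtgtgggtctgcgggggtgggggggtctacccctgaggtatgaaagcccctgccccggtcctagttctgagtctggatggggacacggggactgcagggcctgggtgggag

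In the Fas promoter the capitals mark an AP-1 match that begins 211 bases before the start. In the Tnfsf18 and Tnf promoters they mark TATA boxes, 34 and 29 bases before the start, and in the Ltb promoter a kappaB match on the opposite strand, 87 bases before it. No match was found in the windows of Tnfrsf11a and Tnfrsf13c, which says only that these letters are not in them. RefSeq promoters were at hand for 30 of the 41 genes, 4 of which had several entries. A gene was counted where any of its entries matched, whereas the shares of all promoters are per entry. The kappaB consensus was in those of 3 of the 30 genes (Ltb, Tnfrsf8 and Tnfrsf9), against 4.51% of all 32851 promoters of this length. TGANTCA was in those of 5 (Fas, Tnfrsf8, Tnfrsf9, Tnfsf13b and Tnfsf14), against 7.81% of all. TATAAA was in those of 6 (Lta, Tnf, Tnfrsf17, Tnfrsf23, Tnfsf11 and Tnfsf18), against 13.6% of all. These matches describe the letters and are not evidence of binding.

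Of the 41 genes, 24 were well above background on all 4 arrays, 12 on 1 to 3 arrays and 5 on none. All 5 death domain receptors and 9 of the 15 TRAF-binding receptors were in the first class, as were 7 of the 16 ligands. The 5 genes not well above background anywhere were Cd40, a receptor of antigen-presenting cells, its ligand Cd40lg, the T cell costimulator Cd70, the plasma cell receptor Tnfrsf17 and Tnfsf11, the ligand of RANK. By array, 26 of the genes were well above background in KO and 27 in WT fibroblasts at 24 h, against 34 in KO and 33 in WT fibroblasts at 0 h. As shares these were 63.41% and 65.85% at 24 h and 82.93% and 80.49% at 0 h, beside 61.33%, 67.44%, 71.38% and 72.46% of all genes in the same order. The detected genes were thus more numerous on the arrays with mast cell signal.

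**Figure D1:**
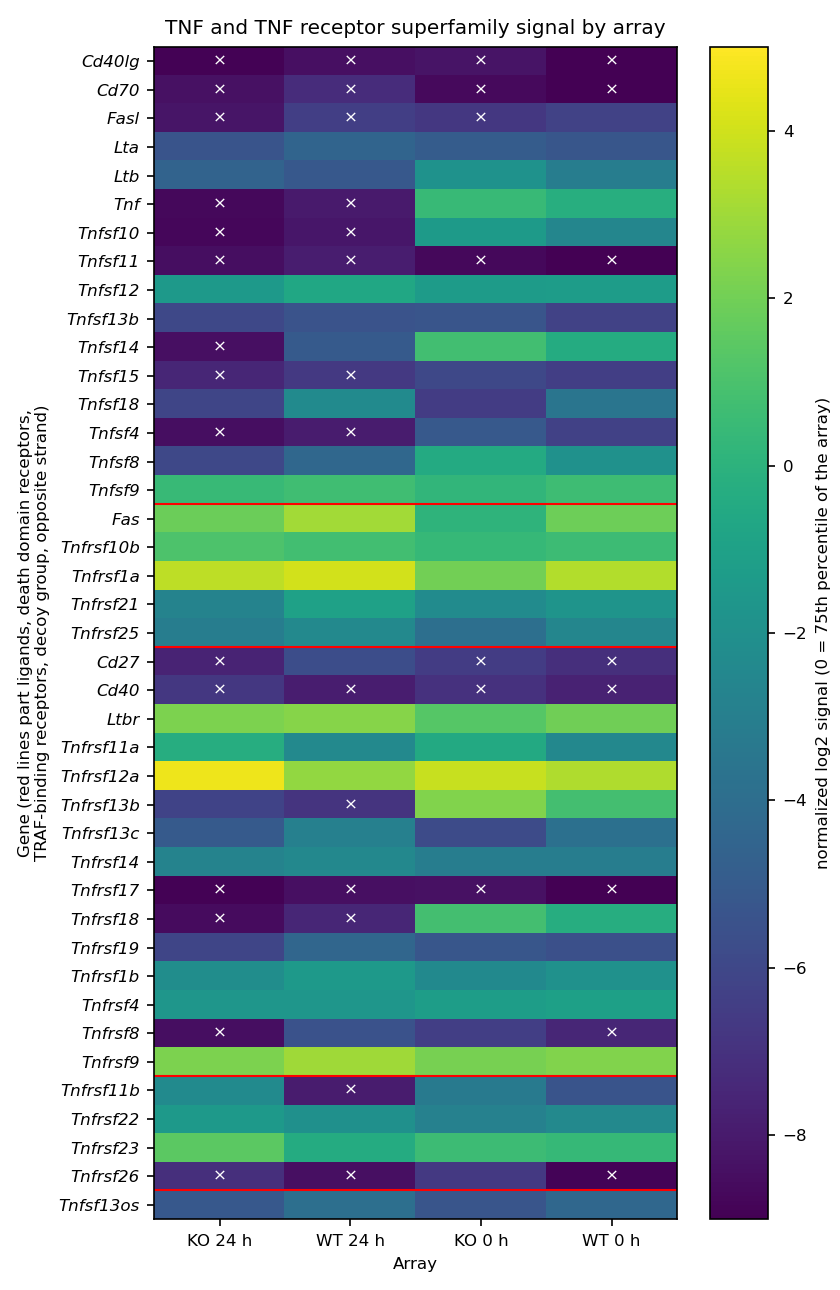
Normalized log2 signal of the 41 genes (rows, in blocks by role) on the 4 arrays (columns: KO 24 h, WT 24 h, KO 0 h, WT 0 h), with brighter colours for higher signal and a cross where the probe was not well above background. The death domain receptors carry no cross, whereas Tnf, Tnfsf10 and Tnfrsf18 are crossed on both 24 h arrays and bright at 0 h.

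The comparison of KO with WT fibroblasts at 24 h asks how the knockout line differed after a day with mast cells, and in this pair the mast cell medians, given above, were low on both arrays. Single mast cell markers differed between the 2 arrays. Il1rl1 read 3.86 in KO and -2.24 in WT, Gata2 0.06 in KO and -2.16 in WT, and Tph1 -3.13 in KO and -4.23 in WT. Hdc went the other way, at -4.72 in KO and -3.15 in WT. Of 10 mast cell markers measured at 24 h, these 3 were called higher and this 1 lower in KO, with a median of 0.62. Of 8 leukocyte markers measured, 1 was higher and 1 lower, with a median of -0.03. The part of the markers' cell types in the differences was not tested. The receptors RANK (Tnfrsf11a), Fn14 (Tnfrsf12a) and the decoy Tnfrsf23 were higher in KO fibroblasts, as was the secreted decoy osteoprotegerin (Tnfrsf11b), while the ligand GITRL (Tnfsf18) and the receptors Fas, DR6 (Tnfrsf21) and the BAFF receptor (Tnfrsf13c) were lower. Of the 24 genes measured on both arrays, 3 were called higher and 7 lower, or 41.7%, beside 18.0% of all genes measured (5.76% higher and 12.3% lower). Their median difference was -0.59, beside -0.09 over all genes. Another 5 genes were well above background on 1 of the arrays: 1 was at least 2-fold higher and 3 at least 2-fold lower in KO, where 8.77% and 56.4% of all such genes were. The remaining 12 were well above background on neither.

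Among the death domain receptors, Fas, which triggers apoptosis when bound by Fas ligand, read 1.83 in KO and 3.08 in WT fibroblasts at 24 h, and 0.09 in KO and 1.89 in WT fibroblasts at 0 h. It was lower in KO at both times, by -1.25 at 24 h and -1.80 at 0 h (SE 0.20 each), or 2.37-fold and 3.47-fold. Its probe lies at chr19:34402164-34402223 on the plus strand (mm9), and no mm9 annotation was used here to place it in an exon or UTR. Tnfrsf21, or DR6, a receptor studied in neurons and lymphocytes, read -2.74 in KO and -0.998 in WT fibroblasts at 24 h and -2.26 in KO and -1.73 in WT fibroblasts at 0 h. Its difference was -1.74 at 24 h (SE 0.21, 3.34-fold lower) and -0.53 at 0 h (SE 0.20), so only the first was called. Tnfrsf1a, the main TNF receptor of most cells, read 3.60 in KO and 4.02 in WT fibroblasts at 24 h and 2.04 in KO and 3.41 in WT at 0 h. It was close between the genotypes at 24 h (-0.42) and lower in KO at 0 h (-1.37, SE 0.20 each), and its second probe gave -0.49 and -1.58. Tnfrsf10b, the mouse TRAIL receptor, read 1.09 in KO and 0.78 in WT fibroblasts at 24 h and 0.39 in KO and 0.62 in WT at 0 h, and neither difference reached 2-fold. Tnfrsf25, a receptor for the ligand Tnfsf15, read -3.08 in KO and -2.43 in WT at 24 h and -3.88 in KO and -2.59 in WT at 0 h. Its difference was -0.65 at 24 h and -1.29 at 0 h (SE 0.21 each), the second being called.

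Among the TRAF-binding receptors, Tnfrsf11a, or RANK, known for driving osteoclast formation, read -0.30 in KO and -2.42 in WT fibroblasts at 24 h and -0.49 in KO and -2.48 in WT fibroblasts at 0 h. Both KO arrays were higher than both WT arrays, and time made little difference within either genotype. The KO minus WT difference was 2.12 at 24 h (SE 0.21, 4.33-fold) and 1.99 at 0 h (SE 0.20, 3.98-fold), with the probe at chr1:107741892-107741951 on the plus strand (mm9). Its ligand Tnfsf11 was well above background on none of the arrays. The decoy that binds that ligand, Tnfrsf11b, was also higher in KO. Tnfrsf11b read -2.31 in KO and -7.92 in WT fibroblasts at 24 h, where the WT spot was not well above background, and -3.27 in KO and -5.38 in WT fibroblasts at 0 h. It was at least 14.4-fold higher in KO at 24 h, a bound set by the lowest signal well above background on the WT array, and 4.32-fold higher at 0 h (2.11, SE 0.23). The probe lies at chr15:54082760-54082819 on the minus strand (mm9).

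Tnfrsf12a, or Fn14, the receptor for TWEAK, read 4.65 in KO and 2.71 in WT fibroblasts at 24 h and 3.84 in KO and 3.34 in WT fibroblasts at 0 h. The difference was 1.93 at 24 h (SE 0.20, 3.82-fold) and 0.50 at 0 h (SE 0.20), so the genotypes were further apart at the later time. Its ligand Tnfsf12, or TWEAK, read -1.41 in KO and -0.64 in WT fibroblasts at 24 h, a difference of -0.78 (SE 0.20) in the other direction that did not reach 2-fold. Tnfrsf23, a decoy receptor for TRAIL in mice, read 1.49 in KO and -0.38 in WT fibroblasts at 24 h and 0.61 in KO and 0.39 in WT fibroblasts at 0 h. Its difference was 1.87 at 24 h (SE 0.20, 3.65-fold) and 0.22 at 0 h, and a second probe gave 2.17 and 0.94. The neighbouring decoy Tnfrsf22 read -1.41 in KO and -1.97 in WT at 24 h and -2.83 in KO and -2.42 in WT at 0 h. Its difference of 0.55 at 24 h was not called, whereas its second probe gave 1.55, so the probes of this gene disagree on the call.

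Tnfrsf13c, the BAFF receptor of B cells, read -5.05 in KO and -2.88 in WT fibroblasts at 24 h and -5.82 in KO and -3.81 in WT fibroblasts at 0 h. It was lower in KO on both occasions, by -2.17 at 24 h (SE 0.25) and -2.01 at 0 h (SE 0.31), with the probe at chr15:82052203-82052262 on the minus strand (mm9). A second probe gave -1.27 at 24 h, where its KO spot was not well above background, and -0.03 at 0 h, so the 0 h difference rests on 1 probe. Tnfrsf19, known for its expression in stem and progenitor cells, read -6.09 in KO and -4.40 in WT at 24 h and -5.25 in KO and -5.61 in WT at 0 h. It differed by -1.70 at 24 h (SE 0.31) and 0.36 at 0 h (SE 0.26), and its second probe gave -0.69 and -0.78. The signal of this gene was close to the limit of what was well above background, which was -6.69 on the KO array and -6.16 on the WT array at 24 h.

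By the probe used for each gene, the other TRAF-binding receptors measured at 24 h were within 2-fold between KO and WT. Ltbr, the lymphotoxin beta receptor, read 2.26 in KO and 2.44 in WT fibroblasts at 24 h and 1.33 in KO and 1.97 in WT at 0 h. Tnfrsf9, or 4-1BB, a costimulatory receptor of T cells that mast cells also carry, read 2.23 in KO and 2.98 in WT at 24 h and 2.11 in KO and 2.36 in WT at 0 h. Tnfrsf1b, the second TNF receptor, Tnfrsf4 (OX40) and Tnfrsf14 (HVEM) were well above background on all arrays, with differences of -0.63, -0.02 and -0.28 at 24 h. Second probes differed from this for Tnfrsf14, at -1.31, and for Tnfrsf9, whose second probe read -3.97 in KO and was not well above background in WT (-8.39). With the mean of the probes Tnfrsf9 stood at 1.83 in place of -0.76, so its direction depends on the probe. The probe used for Cd27, a lymphocyte receptor, was well above background on the WT 24 h array alone (-5.66), which makes it at least 2.04-fold lower in KO. The second Cd27 probe was not well above background on either 24 h array (-7.08 in KO and -6.80 in WT), so this bound rests on 1 probe. Tnfrsf8 (CD30) read -5.48 in WT and was not well above background in KO at 24 h, at least 2.31-fold lower in KO, in a range where most genes seen on 1 array only were lower in KO.

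Among the ligands, Tnfsf18, or GITRL, had a large KO minus WT difference at both times. It read -6.06 in KO and -2.30 in WT fibroblasts at 24 h and -6.51 in KO and -3.57 in WT fibroblasts at 0 h, so both WT arrays were above both KO arrays. The difference was -3.77 at 24 h (SE 0.28, 13.6-fold lower in KO) and -2.94 at 0 h (SE 0.32, 7.67-fold lower), with the probe at chr1:163435352-163435411 on the plus strand (mm9). Its receptor GITR, Tnfrsf18, was not well above background at 24 h. Tnfsf8, or CD30 ligand, read -5.97 in KO and -4.34 in WT at 24 h and -0.45 in KO and -1.91 in WT at 0 h, a difference of -1.63 at 24 h (SE 0.31) and of 1.46 at 0 h (SE 0.20). Tnfsf14, or LIGHT, a ligand of HVEM and Ltbr, was not well above background in KO and read -5.03 in WT at 24 h, at least 3.16-fold lower in KO. The opposite-strand transcript Tnfsf13os read -5.13 in KO and -3.90 in WT at 24 h and -5.29 in KO and -4.30 in WT at 0 h, with differences of -1.23 (SE 0.24) and -0.99 (SE 0.23).

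Tnfsf9 (4-1BB ligand) was the ligand whose probe was above the 75th percentile of spots on every array, at 0.43 in KO and 0.73 in WT at 24 h and 0.23 in KO and 0.64 in WT at 0 h, and it was within 2-fold between genotypes and times. Lymphotoxin alpha (Lta) and BAFF (Tnfsf13b) were dim on all arrays, between -6.26 and -4.49, with KO minus WT differences of -0.90 and -0.54 at 24 h. The array pair also differed at low signal in controls that do not come from the cells. The 2 dimmest of the 10 RNA controls added at labelling differed by -0.77 and -0.81 between KO and WT at 24 h, and the other 8 by 0.09 to 0.81. Tnfrsf19, Tnfsf8 and Tnfsf13os, and the KO spots of Tnfrsf13c and Tnfsf18, read near or below -4, and the part of this offset in their differences was not tested. Tnfrsf11a, Tnfrsf12a and Tnfrsf23, called higher in KO, read within the signal range of the other 8 controls, all of which were higher in KO. The part of that opposite offset in their differences was not tested either. Where only genes with a mean signal of at least -4 over the pair were kept, a limit chosen after seeing the data, 17 genes remained, of which Tnfrsf11a, Tnfrsf12a and Tnfrsf23 were higher and Fas, Tnfrsf13c and Tnfrsf21 lower in KO, beside 12.8% of all genes called (6.31% higher and 6.47% lower). With normexp background correction followed by quantile normalization, Tnfrsf13c (-0.93), Tnfrsf19 (-0.38), Tnfsf8 (-0.34) and Tnfsf13os (-0.44) were no longer called, and Tnfsf18 stood at -1.89. That setting added an offset of 50 before the log, which narrows the differences of dim probes by construction. At 0 h the same limit on mean signal left 23 genes, 7 higher and 3 lower in KO, beside 11.9% of all genes (7.37% higher and 4.58% lower).

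**Figure D2:**
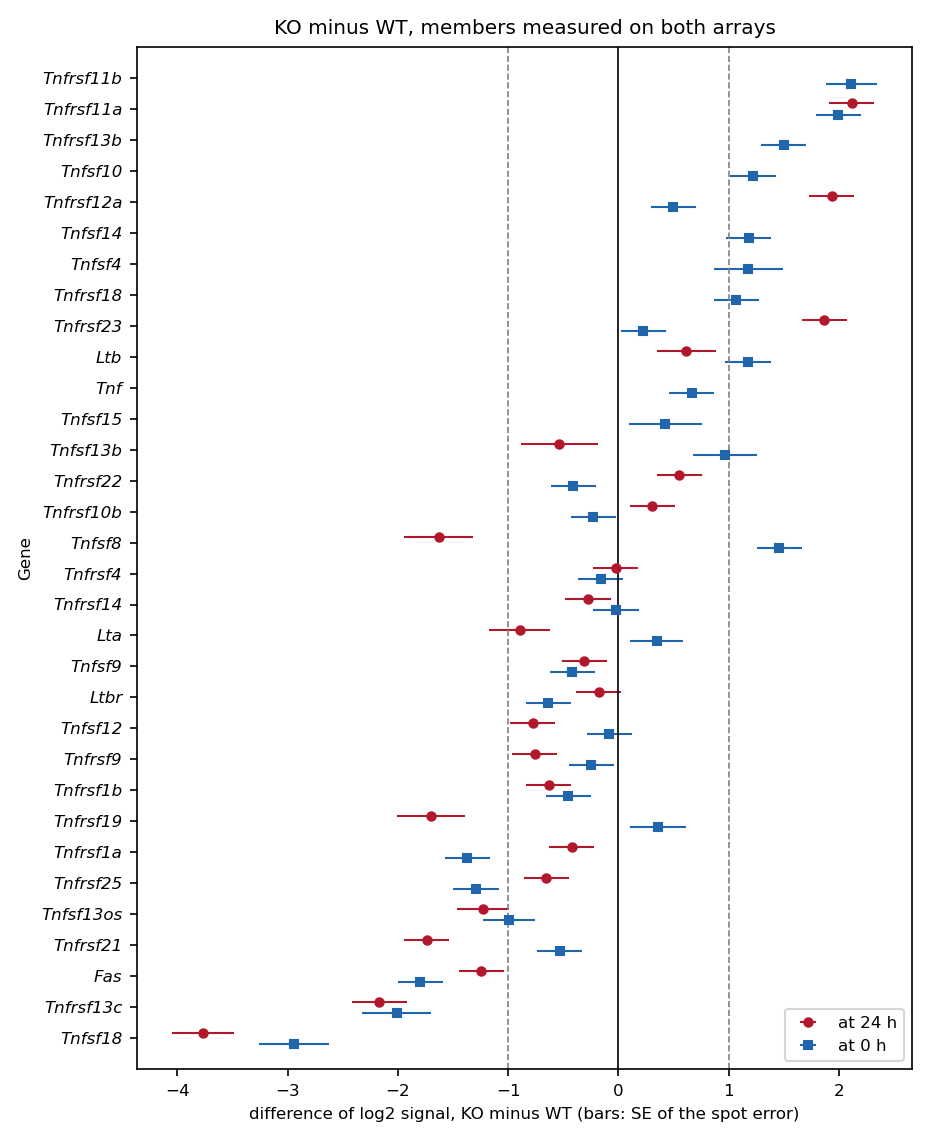
Difference of log2 signal between KO and WT (x axis, KO minus WT) for each gene measured on both arrays of a time (y axis), with circles for 24 h, squares for 0 h, bars for the SE of the spot error and dashed lines at 2-fold. Tnfrsf11a lies at 2.12 and 1.99 and Tnfsf18 at -3.77 and -2.94, whereas Tnfsf8 lies on opposite sides of 0 at the 2 times.

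At 0 h the comparison of KO with WT asks how the groups differed at the time labelled 0 h. Tnfrsf11a, Tnfrsf11b, Tnfrsf13b, Tnfrsf18 and the ligands Tnfsf8, Tnfsf10, Tnfsf14, Tnfsf4 and Ltb were higher in KO, and Fas, Tnfrsf1a, Tnfrsf25, Tnfrsf13c and Tnfsf18 were lower in KO. Of 32 genes measured, 9 were called higher and 5 lower, or 43.8%, beside 13.4% of all genes (9.34% higher and 4.08% lower), and the median was 0.10, beside 0.06 over all genes. The sign of that small median turned with quantile normalization (-0.04) and with normexp background correction (-0.02). None of the 3 genes seen on 1 of these arrays had a bound of 2-fold, where 27.0% of all such genes were higher and 8.08% lower in KO.

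Of the 9 higher genes, Tnfrsf11a and Tnfrsf11b are described above, and the other 7 differed by 1.07 to 1.50. Tnfrsf13b, or TACI, a BAFF and APRIL receptor of B cells, read 2.33 in KO and 0.83 in WT at 0 h (difference 1.50, SE 0.20). Tnfrsf18 read 0.82 in KO and -0.25 in WT (1.07, SE 0.20). Among ligands, Tnfsf14 read 0.78 in KO and -0.40 in WT, Tnfsf10 (TRAIL) -1.37 in KO and -2.59 in WT, and Ltb (lymphotoxin beta) -1.88 in KO and -3.06 in WT. The differences of these 3 were 1.18, 1.22 and 1.18. Tnfsf4 (OX40 ligand), at -5.09 in KO and -6.27 in WT, differed by 1.18 (SE 0.32), and Tnfsf8 by 1.46. Tnf itself read 0.45 in KO and -0.22 in WT, a difference of 0.66 (SE 0.20) that did not reach 2-fold.

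Beside these values, the mast cell markers had a median KO minus WT difference of 1.00 at 0 h, with 9 of 17 measured called higher and 0 lower, and the leukocyte markers 1.01, with 10 of 13 higher and 0 lower. The fibroblast markers had a median of -0.47. The part of this difference in mixture in the 0 h differences was not tested. When each array was scaled to the median of the fibroblast markers in place of the 75th percentile, all genes moved up by 1.01 in this comparison, Fas differed by -0.78 and Tnfrsf13c by -0.997 (just under 2-fold), and Tnfrsf1a (-0.35) and Tnfrsf25 (-0.28) were no longer called. Tnfsf18 at -1.93 was called under that scaling too. So was Tnfrsf11a at 3.01, but the upward shift of all genes could not have removed a call of higher in KO. With normexp background correction, Tnfrsf11b (0.74), Tnfrsf13c (-0.69), Tnfrsf25 (-0.86), Ltb (0.88), Tnfsf10 (0.97) and Tnfsf4 (0.24) were not called at 0 h.

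Time was compared within each genotype, which asks what differed between the times labelled 24 h and 0 h. Tnf, TRAIL (Tnfsf10), LIGHT (Tnfsf14), CD30 ligand (Tnfsf8), lymphotoxin beta (Ltb), GITR (Tnfrsf18) and TACI (Tnfrsf13b) were lower at 24 h in both KO and WT, and Fas was higher at 24 h in both. In KO, of 26 genes measured, 3 were higher and 3 lower at 24 h, or 23.1%, beside 20.4% of all genes (9.48% higher and 10.9% lower). In WT, of 25 genes measured, 3 were higher and 3 lower, or 24.0%, beside 21.4% of all genes (15.8% higher and 5.58% lower). The shares of called genes were thus near those of all genes in both lines. Medians were 0.21 in KO and 0.45 in WT, beside 0.23 and 0.28 over all genes. With the fibroblast markers as the scale they were -1.19 in KO and 0.12 in WT, beside -1.17 and -0.06 over all genes. Among genes well above background on 1 array of a pair, 5 of 8 were at least 2-fold lower at 24 h in KO and 0 higher, where 33.5% of all such genes were lower and 2.81% higher. In WT 4 of 10 were lower and 2 higher, where 19.0% and 26.1% of all such genes were. The 2 higher in WT were Cd27 and Tnfrsf8, at least 2.75-fold and 3.67-fold. The second Cd27 probe did not show this, with -6.80 at 24 h, not well above background, and -6.73 at 0 h in WT, where it was. In WT the 2 dimmest added RNA controls were higher at 24 h by 0.98 and 1.26. The part of this offset in the bounds of Cd27 and Tnfrsf8 was not tested.

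Tnf, the founding ligand, is represented by 10 replicate spots of its probe at chr17:35336795-35336854 on the minus strand (mm9). It read -8.70 in KO and -7.98 in WT at 24 h, not well above background in either, against 0.45 in KO and -0.22 in WT at 0 h. It was at least 141-fold lower at 24 h than at 0 h in KO and at least 61.7-fold lower in WT. Tnfrsf18 was likewise not well above background at 24 h (-8.58 in KO and -7.51 in WT), at least 182-fold lower than at 0 h in KO and at least 60.2-fold lower in WT. Tnfsf10 was at -8.74 in KO and -8.14 in WT at 24 h, at least 40.0-fold lower than at 0 h in KO and at least 11.9-fold lower in WT. These 3 genes thus had signal at 0 h alone.

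Tnfrsf13b read -6.17 in KO at 24 h and -8.50 relative to 0 h (SE 0.32, 363-fold lower), and this probe was not well above background in WT at 24 h, at least 128-fold lower than at 0 h. A second probe of the gene was well above background on all 4 arrays, with -5.60 in KO and -4.995 in WT at 24 h. It gave differences of -3.05 in KO and -1.64 in WT, in the same direction but far smaller, so the size of this fold depends on the probe. Tnfsf14 was at least 177-fold lower at 24 h in KO and 24.7-fold lower in WT (-4.63, SE 0.27). Tnfsf8 was lower by -5.52 in KO (SE 0.30) and -2.43 in WT (SE 0.23). Ltb read -4.53 in KO and -5.15 in WT at 24 h, and differed from 0 h by -2.65 in KO (SE 0.22) and -2.09 in WT (SE 0.26). Tnfsf4 was not well above background at 24 h and was at least 3.03-fold lower than at 0 h in KO. Ltb and Tnfsf8 were the 2 genes measured on all 4 arrays and called lower at 24 h in both lines.

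**Figure D3:**
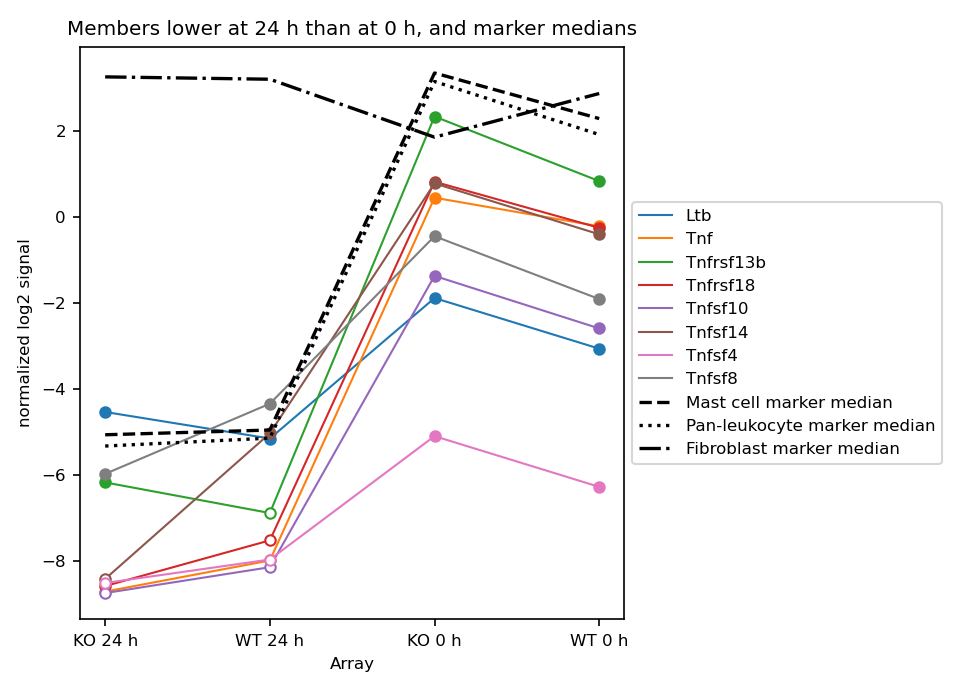
Normalized log2 signal (y axis) of the genes called lower at 24 h than at 0 h, on each array (x axis: KO 24 h, WT 24 h, KO 0 h, WT 0 h), with filled points where the probe was well above background and open points where it was not. Dashed, dotted and dash-dotted black lines give the medians of the mast cell, leukocyte and fibroblast markers, and every coloured line is lower at 24 h than at 0 h in both KO and WT, as are the mast cell and leukocyte medians.

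Over the same pairs, all 12 measured mast cell markers were lower at 24 h in both KO and WT, with medians of -6.87 and -7.08, and the leukocyte medians were -7.91 and -6.34. The fibroblast medians were 1.02 in KO and 0.58 in WT. The part of this difference in mixture in the time differences was not tested.

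Among the receptors of the fibroblast-rich arrays, Fas was higher at 24 h than at 0 h by 1.74 in KO and 1.19 in WT (SE 0.20 each), or 3.34-fold and 2.28-fold. Tnfrsf1a was higher by 1.56 in KO and 0.61 in WT (SE 0.20 each), and Tnfrsf22 by 1.41 in KO (SE 0.21) and 0.45 in WT (SE 0.20), each called in KO alone. The KO minus WT difference of these time differences was 0.95 for Tnfrsf1a and 0.96 for Tnfrsf22 (SE 0.29 each), under 2-fold. Tnfsf18 was higher by 0.45 in KO (SE 0.37) and 1.27 in WT (SE 0.21), and Tnfrsf19 by 1.21 in WT (SE 0.25) while it stood at -0.85 in KO (SE 0.31). Tnfrsf19 was dim, and the 2 dimmest added RNA controls were also higher at 24 h in WT, by 0.98 and 1.26. The part of this offset was not tested. With the arrays scaled on the fibroblast markers, Fas stood at 0.34 in KO and 0.86 in WT and was called in neither line, Tnfrsf1a at 0.16 in KO and Tnfsf18 at 0.94 in WT. With quantile normalization Fas was just under 2-fold in WT (0.992), and with normexp Tnfrsf19 stood at 0.38 there. The 24 h level of these receptors relative to 0 h therefore depends on the gene set that the arrays are scaled to.

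**Figure D4:**
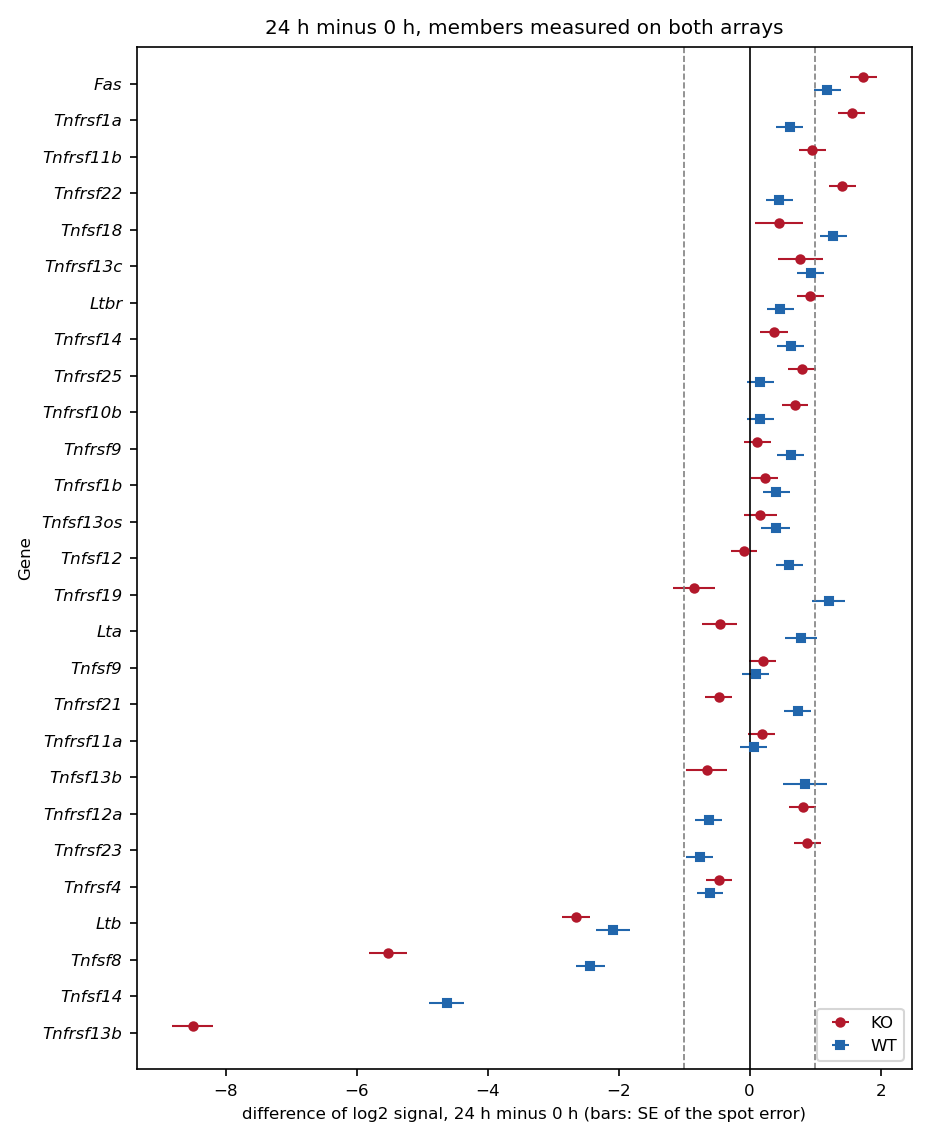
Difference of log2 signal between 24 h and 0 h (x axis, 24 h minus 0 h) for each gene measured on both arrays of a line (y axis), with circles for KO, squares for WT, bars for the SE of the spot error and dashed lines at 2-fold. Fas lies above 2-fold in both lines, and Tnfsf8 and Ltb lie below it in both.

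The difference between the 2 time differences, KO minus WT, was taken for the 24 genes measured on all 4 arrays. With the 75th percentile as the scale, it was at least 2-fold above 0 for Tnfrsf23 (1.64) and Tnfrsf12a (1.44) and at least 2-fold below 0 for Tnfsf8 (-3.09), Tnfrsf19 (-2.06), Tnfsf13b (-1.50), Lta (-1.24) and Tnfrsf21 (-1.21). That is 29.2% of the genes, beside 18.0% of all genes (4.72% above and 13.3% below). Tnfrsf19, Tnfsf13b, Lta and the 24 h spots of Tnfsf8 were dim. The 2 dimmest added RNA controls, which do not come from the cells, differed between 24 h and 0 h too. They stood at -0.37 and -0.24 in KO and at 0.98 and 1.26 in WT. The part of this offset in the values of the dim genes was not tested. With the fibroblast markers as the scale, 0 genes were above and 13 below, and Tnfrsf23 (0.57) and Tnfrsf12a (0.37) were not called. That scale moved the median time difference of all genes by -1.40 in KO and by -0.33 in WT. For Tnfrsf12a the line difference was seen as 0.81 in KO and -0.63 in WT between 24 h and 0 h, and for Tnfrsf23 as 0.88 in KO and -0.76 in WT. These signs also depend on the scale: with the fibroblast markers they were -0.59 in KO and -0.96 in WT for Tnfrsf12a, and -0.52 in KO and -1.09 in WT for Tnfrsf23. With the 75th percentile as the scale, Tnfrsf11a had 0.18 in KO and 0.06 in WT, and its genotype difference was also there at 0 h. Its time differences depend on the scale too. With the fibroblast markers it stood at -0.27 in WT, and the larger shift of -1.40 in KO applies to it as well. With the 75th percentile as the scale, Fas (0.55, SE 0.29), Tnfrsf13c (-0.15, SE 0.40) and Tnfsf18 (-0.83, SE 0.42) were within 2-fold, each with its genotype difference called at both times. The fibroblast marker scale lowers these 3 values as it does those of all genes, so that they were within 2-fold holds for the 75th percentile scale only. These values come from 4 arrays without replicates and were not tested.

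Several of these genes sit side by side on the mouse genome (mm9 probe positions). Ltb, Tnf and Lta lie within a cluster on chromosome 17, with 3.6 kb between the first pair of probes and 3.4 kb between the second. Ltb and Tnf were lower at 24 h than at 0 h in both lines, whereas Lta was dim on all 4 arrays, at -5.39 in KO and -4.49 in WT at 24 h and -4.93 in KO and -5.28 in WT at 0 h. On chromosome 1, Tnfsf4 and Tnfsf18 lie 87.2 kb apart, and Fasl follows 275.6 kb on. Tnfsf18 was the one of them measured on all arrays, and Fasl, the Fas ligand, was well above background in WT at 0 h alone (-6.24). On chromosome 7, Tnfrsf26, Tnfrsf22 and Tnfrsf23 are 32.6 and 25.0 kb apart. The last 2 were the ones measured, each with a probe higher in KO at 24 h, while Tnfrsf26 was well above background in KO at 0 h alone (-6.68). The ligand Tnfsf15 was likewise well above background only at 0 h, at -5.95 in KO and -6.38 in WT.

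The wider pathway was read from 5 lists of genes. In KO relative to WT at 24 h, the receptor-proximal adaptors, kinases and ubiquitin ligases were mostly level: of 25 measured, 2 were higher and 0 lower, with a median of 0.03, beside -0.09 over all genes. The exceptions were Traf1, an adaptor that NF-kB is known to induce, and Cflar, the inhibitor of caspase-8 (difference 1.00). Cflar was only just called, and with the fibroblast markers as the scale it stood at 0.95 and was not. The 8 brighter added RNA controls were also higher in KO in this pair, by 0.09 to 0.81, and the part of that offset was not tested. Traf1 read 1.86 in KO and -2.20 in WT at 24 h and -0.44 in KO and -2.54 in WT at 0 h, a KO minus WT difference of 4.06 at 24 h and 2.10 at 0 h. Of 10 NF-kB subunits and inhibitors 0 were called in either direction at 24 h (median 0.12). Over all genes measured at 24 h, 5.76% were higher and 12.3% lower in KO.

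Among 19 measured genes known to be induced by TNF and NF-kB, 4 were higher and 5 lower in KO at 24 h, with a median of -0.29. Tnfaip3, the A20 inhibitor of NF-kB signalling, differed by 1.82, the stromelysin Mmp3 by 1.70 and the cytokine Csf2 by 1.27. The neutrophil chemokine Cxcl5 differed by -3.56, the iron-binding Lcn2 by -3.37 and the acute-phase gene Saa3 by -2.95. Members of this list thus lay on both sides, with no common direction, where 5.76% of all genes measured were higher and 12.3% lower. Of the 4 genes of ectodomain shedding, Rhbdf2, a partner of the TNF-releasing protease Adam17, was lower in KO (-1.42). Of the 5 superfamily genes with other names, Eda2r (-1.29) and Eda (-1.20) were lower, both dim, and the neurotrophin receptor Ngfr was at least 8.61-fold higher in KO, at -3.06 in KO and not well above background in WT at 24 h.

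At 0 h, 1 of the 25 receptor-proximal genes was higher and 1 lower in KO (Traf4, -1.11), with a median of 0.10. Of 10 NF-kB genes, Bcl3, a nuclear partner of NF-kB subunits, was lower in KO (-2.11). Of 21 induced genes, 1 was higher (Tnfaip3, 1.02) and 6 lower, among them Cxcl5 (-4.45), Cxcl1 (-3.23) and Lcn2 (-2.17), with a median of -0.22, beside 9.34% higher and 4.08% lower of all genes. With the fibroblast markers as the scale, 15 receptor-proximal genes were higher and 0 lower at 0 h, and 7 induced genes were higher and 3 lower. Their medians were 1.11 and 0.80 under that scale, which moved the median of all genes by 1.01, to 1.07. Cxcl5 and Lcn2 were thus lower in KO, and Tnfaip3 and Traf1 higher, at both times and under both scales. For Tnfaip3 and Traf1 at 0 h the fibroblast marker scale is no check. Its upward shift of all genes by 1.01 could not have removed a call of higher in KO. Tnfaip3 (1.02) also lay close to the 0 h medians of the mast cell markers (1.00) and the leukocyte markers (1.01). The part of this difference in mixture in the 0 h values of these genes was not tested.

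Between 24 h and 0 h, 3 receptor-proximal genes were higher and 1 lower in KO, and 0 were called in WT, with medians of 0.37 in KO and 0.17 in WT. The 3 in KO were Traf1 (2.30), Mlkl (1.63), the executor of necroptosis, and Traf4 (1.23). Of the NF-kB genes 3 were higher in KO (Bcl3 2.58, Relb 1.25 and Nfkb2 1.20), against 0 in WT, and Rel and Nfkbiz were lower in both, by -2.56 and -1.91 in KO and -1.72 and -1.40 in WT. Of the induced genes, 8 of 19 were higher and 3 lower in KO, against 3 of 20 higher and 3 lower in WT, beside 9.48% higher and 10.9% lower of all genes in KO and 15.8% and 5.58% in WT. These counts turn with the scale. With the fibroblast markers in its place, 0 receptor-proximal genes were higher and 13 lower in KO, 1 NF-kB gene was higher (Bcl3, 1.18) and 5 lower, and 0 induced genes were higher and 5 lower. Under it Traf1 (0.90) and Mlkl (0.23) were not called, and Relb (-0.15), Nfkb2 (-0.20) and Traf4 (-0.17) were on the other side of 0 in KO. In WT the same scale gave 0 and 0 receptor-proximal, 0 and 3 NF-kB, and 2 and 3 induced genes higher and lower. It moved the median of all genes by -1.40 in KO, to -1.17, and by -0.33 in WT, to -0.06. Under it the KO medians were -1.03 for the receptor-proximal, -0.97 for the NF-kB and -0.49 for the induced genes. Il6 was the lowest in KO, at -5.39, and stood at -2.37 in WT. Relt, a further receptor of the superfamily, was lower by -2.05 in KO and -1.75 in WT. No list here was tested as a set.

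**Figure D5:**
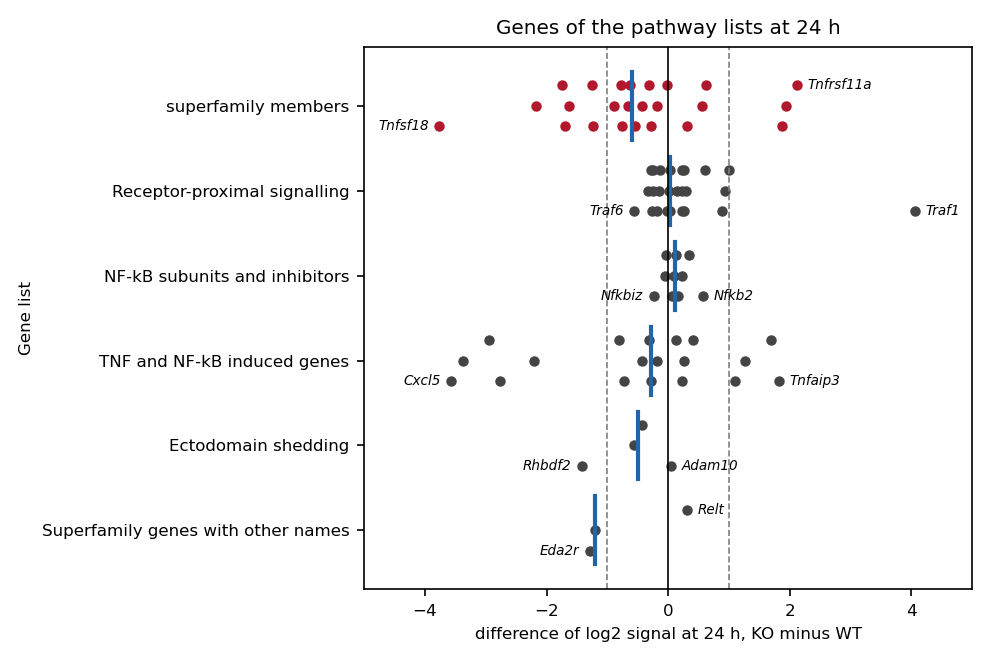
Difference of log2 signal between KO and WT at 24 h (x axis, KO minus WT) for the measured genes of the TNF superfamilies (red) and of the 5 pathway lists (grey), one row a list, with a blue bar at each median and dashed lines at 2-fold. The receptor-proximal and NF-kB genes gather near 0 apart from Traf1 at 4.06, and the induced genes spread to both sides.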

How the data were processed

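Total RNA (200 ng) was labelled and hybridised to single-colour Agilent arrays, and spots were read by the authors in Feature Extraction (Agilent, 12.1.1.1), as the submitters' processing notes state. Per the file headers, the deposited intensity is a background-subtracted processed signal, and the positions are on mm9. The deposited value table is a ratio to a constant of each array and was used as an alternative. That constant was close to the array's 75th percentile (749.90 against 749.87 for KO at 24 h), so this alternative repeats the main scale. All 4 arrays lie on 1 slide. From the scanner files, log2 processed signal minus each array's 75th percentile was computed, with replicate spots of a probe averaged and the brightest probe kept per gene. Genes well above background and not saturated on both arrays were called at 2-fold. There were 0 saturated spots. A gene well above background on 1 array got an at-least fold against the lowest signal well above background on the other. Alternatives were quantile normalization, normexp in limma 3.58.1 (R 4.3.3), the deposited table, no filter on dim probes, the mean of probes and scaling on fibroblast markers. The normexp offset was 50, followed by quantile normalization. Genes named with values are those called in any comparison or above 0 on any array. For pathway lists, counts, medians and up to 3 genes at each end are given. The members and lists were chosen with earlier results of these data known. The calling step was tested on simulated data. Python 3.11.15, pandas 2.3.3 and numpy 2.4.6 were used. The number of arrays limits the precision.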

Additional observations from a re-analysis of the deposited data

Results flagged for a closer look

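In 6 genes the sign of a difference was opposite between the lines or the times, with each value beyond 2 SE of its spot error, when arrays were scaled to the 75th percentile. Between 24 h and 0 h, Tnfrsf12a differed by 0.81 in KO and -0.63 in WT, so that KO minus WT was 1.44. Tnfrsf23 differed by 0.88 in KO and -0.76 in WT (1.64 apart). Tnfrsf19 went the other way, at -0.85 in KO and 1.21 in WT (-2.06), as did Tnfrsf21 at -0.47 in KO and 0.73 in WT (-1.21) and Tnfsf13b at -0.66 in KO and 0.85 in WT (-1.50). Tnfsf8 was lower in KO at 24 h (-1.63) and higher in KO at 0 h (1.46), which makes -3.09. With fibroblast marker scaling the signs of Tnfrsf12a (-0.59 in KO and -0.96 in WT) and Tnfrsf23 (-0.52 in KO and -1.09 in WT) were alike. A second Tnfrsf23 probe gave 1.15 in KO and -0.08 in WT. A second Tnfrsf19 probe gave 0.32 in KO and 0.22 in WT, with no opposite sign, and with quantile normalization Tnfrsf19 stood at -0.13 in KO. Tnfrsf21 stood at -0.19 in KO with quantile normalization. Each rests on 1 array a group, and none of these differences was tested. Tnfrsf19, Tnfsf13b and the 24 h spots of Tnfsf8 were dim. Between 24 h and 0 h the 2 dimmest added RNA controls also had opposite signs, at -0.37 and -0.24 in KO and 0.98 and 1.26 in WT. The part of this offset in the signs of the dim genes was not tested.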

How the results depend on the processing

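No paired analysis was possible because each group has 1 array and no result comes from a test. The counts and medians were the same from the deposited value table, which repeats the main scale and so could hardly differ. In the main setting 3 genes were higher and 7 lower in KO at 24 h (median -0.59), and 9 higher and 5 lower at 0 h (median 0.10). With normexp, the 24 h count lower in KO was 3 (median -0.35), the 0 h counts were 5 higher and 3 lower, the WT time count higher was 1, and the difference of time differences had 1 below. With quantile normalization the KO time count higher was 7 (median 0.47) and the difference of time differences had 3 below. Without the filter on dim probes, 6 were higher and 13 lower in KO at 24 h, the 0 h median was 0.43, the time counts were 12 lower in KO (median -0.087) and 8 higher and 9 lower in WT, and the difference of time differences had 18 below (median -0.79). With the mean of probes, 5 were higher in KO at 24 h, the 0 h median was 0.32 and 5 genes were above in the difference of time differences. With fibroblast marker scaling, 16 were higher and 1 lower in KO at 0 h (median 1.12), 0 higher and 15 lower at 24 h in KO (median -1.19), 0 higher in WT (median 0.12), and 0 above and 13 below in the difference of time differences (median -1.24). That scaling moved the median of all genes by -0.05 between KO and WT at 24 h, 1.01 at 0 h, -1.40 over time in KO and -0.33 in WT, and normexp moved the last by -0.16. With genes of mean signal at or above -4 only, added after seeing the data, 3 were lower in KO at 24 h (median -0.31) and 3 at 0 h, and 2 were below in the difference of time differences (median 0.13). The 4 comparisons of KO with WT and of 24 h with 0 h gave 36 calls of named genes. Of these, 33 held with quantile normalization, 24 with normexp, 35 with the mean of probes, 26 with fibroblast marker scaling and 36 with the deposited table, and 0 reversed. The deposited table repeats the main scale, so its agreement is no check. Only 10 of the 41 genes had over 1 probe, so the mean of probes could change the calls of those genes alone. Fibroblast marker scaling shifts all genes of a comparison alike, so calls in the direction of the shift could not be lost. Values that were not called did change sign in places, as for Tnfrsf9 at 24 h, from -0.76 to 1.83 with the mean of probes. At 24 h, normexp gave Tnfsf18 -1.89, Tnfrsf11a 1.63, Fas -1.23, Tnfrsf21 -1.33, Tnfrsf12a 1.92 and Tnfrsf23 1.69, whereas Tnfrsf13c (-0.93), Tnfrsf19 (-0.38), Tnfsf8 (-0.34) and Tnfsf13os (-0.44) fell short of 2-fold. The offset of 50 that normexp added before the log narrows the differences of dim probes by construction. Over the 4 arrays the mean processed signal was 62.8 for Tnfrsf13c, 26.5 for Tnfrsf19 and 42.4 for Tnfsf13os. How much of each loss comes from the offset was not tested. Signal close to background limits the values of these genes, and 1 array a group limits all values.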
